A study of Homo sapiens with 47 samples.

Results

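The H3K4me3Q5ser ChIP of PC3 cells that overexpress DDC was compared with that of PC3 cells carrying the empty vector. The 6 libraries are those whose labels give this antibody and either line, 3 per line, out of 47 samples in the series, and the comparison covers all 19535 regions of the deposited count table. PC3 is an established line from a human prostate cancer. Both lines carry a vector, and the sources used here do not say whether a line is 1 clone, which promoter drives DDC or whether the 3 numbered replicates are separate cultures, so p-values measure the spread between these libraries, which may be technical. Input DNA, ChIP of H3K4me3 and RNA of the same 2 lines, 3 libraries each, are given beside the mark.

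Trimethylated lysine 4 of histone H3 marks the starts of active and poised genes. Serotonin can be joined to the neighbouring glutamine by transglutaminase 2 (TGM2), which gives the combined mark H3K4me3Q5ser, known to be recognised by the general transcription factor TFIID. DDC, aromatic L-amino acid decarboxylase, makes serotonin from 5-hydroxytryptophan and dopamine from L-DOPA.

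In DDC cells the mark was at least 2-fold lower at 347 regions and at least 2-fold higher at 14, among 19530 tested (205 and 27 with a trend in GC content removed). The largest falls at protein-coding starts lay at ARHGAP32, MACC1, TC2N and ACOXL, and 208 of the 347 regions lie at no annotated gene start. Of 41 regions at listed epithelial genes 10 were 2-fold lower, among them those of ST14, ESRP1, GRHL2, LAD1, EHF and CDH1, as was a region of CYP1B1, a target of the aryl hydrocarbon receptor. The regions with the largest rises lie mostly at zinc-finger genes of chromosome 19, where the median of input DNA was higher too. The promoters below are those of 3 of the largest falls and 3 of the largest rises that RefSeq holds for a start near the region, shown with CG dinucleotides in capitals, since promoters that carry H3K4me3 are usually dense in them. Each runs from 250 bases before to 50 bases after the annotated start, 5′ to 3′ on the gene's strand (GRCh38.p14).
ARHGAP32, chr11:129024139-129024438 (minus strand, 1 CG): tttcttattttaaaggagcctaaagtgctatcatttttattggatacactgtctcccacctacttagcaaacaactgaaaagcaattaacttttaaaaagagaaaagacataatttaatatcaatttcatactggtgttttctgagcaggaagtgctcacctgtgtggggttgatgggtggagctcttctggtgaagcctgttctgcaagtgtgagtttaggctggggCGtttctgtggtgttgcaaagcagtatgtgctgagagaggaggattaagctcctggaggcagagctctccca
MACC1, chr7:20217335-20217634 (minus strand, 5 CG): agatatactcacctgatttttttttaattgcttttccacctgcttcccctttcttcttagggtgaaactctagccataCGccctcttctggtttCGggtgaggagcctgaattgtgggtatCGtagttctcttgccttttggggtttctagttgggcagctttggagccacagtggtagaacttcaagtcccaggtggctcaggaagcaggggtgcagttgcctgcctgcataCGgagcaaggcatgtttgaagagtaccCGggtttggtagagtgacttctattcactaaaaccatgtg
ACOXL, chr2:110732323-110732622 (plus strand, 21 CG): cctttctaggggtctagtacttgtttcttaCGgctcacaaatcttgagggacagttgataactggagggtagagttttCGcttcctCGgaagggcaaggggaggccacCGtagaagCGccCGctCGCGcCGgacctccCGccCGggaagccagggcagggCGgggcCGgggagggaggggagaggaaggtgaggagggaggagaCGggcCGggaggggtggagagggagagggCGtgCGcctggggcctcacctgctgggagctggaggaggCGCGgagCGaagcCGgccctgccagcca
ZNF66, chr19:20776054-20776353 (plus strand, 9 CG): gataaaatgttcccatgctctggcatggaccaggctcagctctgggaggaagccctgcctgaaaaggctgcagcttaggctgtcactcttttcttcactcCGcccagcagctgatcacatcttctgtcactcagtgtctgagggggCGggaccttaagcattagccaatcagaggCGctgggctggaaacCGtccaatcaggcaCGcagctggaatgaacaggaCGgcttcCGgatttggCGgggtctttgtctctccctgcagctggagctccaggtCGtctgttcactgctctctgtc
ZNF730, chr19:23116775-23117074 (plus strand, 16 CG): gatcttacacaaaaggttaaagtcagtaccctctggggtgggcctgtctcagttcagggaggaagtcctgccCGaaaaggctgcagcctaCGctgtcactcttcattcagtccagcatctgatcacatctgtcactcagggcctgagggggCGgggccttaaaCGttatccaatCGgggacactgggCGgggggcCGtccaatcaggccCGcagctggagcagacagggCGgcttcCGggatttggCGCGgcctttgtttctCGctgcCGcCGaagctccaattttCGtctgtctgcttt
ZNF585B, chr19:37210487-37210786 (minus strand, 19 CG): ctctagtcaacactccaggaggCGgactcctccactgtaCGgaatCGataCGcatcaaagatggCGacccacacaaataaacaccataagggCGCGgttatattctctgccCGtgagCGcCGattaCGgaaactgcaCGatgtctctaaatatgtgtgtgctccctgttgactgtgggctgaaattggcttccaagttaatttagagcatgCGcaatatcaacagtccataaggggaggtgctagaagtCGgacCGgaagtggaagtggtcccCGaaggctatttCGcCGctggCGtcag
Of these 6 promoters, 300 bases of MACC1, ACOXL and ZNF585B lie inside the region, against 23 of ARHGAP32, 82 of ZNF66 and 133 of ZNF730. RefSeq promoters were matched for 7 of the 12 largest falls and 7 of the 12 largest rises at protein-coding starts. The median promoter held 3 CG dinucleotides among the matched falls and 13 among the matched rises. It held 14 over all 35116 RefSeq promoters of the same length, of which 96.0% hold at least 1 CG on either strand, and 27 over the 10461 promoters that overlap a region at their gene's start, so both sets lie below the latter. Of those 10461 promoters 391 (3.74%) held at most 5 CG, against 23 of 46 (50.0%) in regions 2-fold lower, where the median was 5.5. In regions 2-fold higher the median was 12.5 over 6 promoters. The match is to letters only.

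The 6 libraries held 13.5 M to 24.4 M read pairs in regions, and the empty-vector libraries were deeper, with a median of 600 to 603 pairs per region against 318 to 389 in DDC. The 19535 regions are those of the deposited H3K4me3Q5ser peak list. Peaks of a deeper line may enter such a list more easily, which would bear on the counts of falls and rises and was not tested. Input held 1.39 M to 1.83 M pairs, with a median of 43 to 56 pairs per region, so a fold change relative to input is much less precise than the mark alone. H3K4me3 of the 2 lines held 3.43 M to 4.58 M pairs, with a median of 104 to 135 pairs per region. Fold changes of H3K4me3, and those relative to it, are less precise as well. Empty-vector replicates 1 and 3 did not differ beyond sampling noise in a chi-square test (1.015 per degree of freedom, p = 0.0693) while the other pairs of that antibody and line did, so they may be 1 library. Some pairs of H3K4me3 and input libraries, at up to 1.017 per degree of freedom, did not differ beyond it either. With empty-vector H3K4me3Q5ser replicates 1 and 3 counted as 1 library, 5717 regions were called higher and 6125 lower. For this reason values of each library are given in place of a mean. Scaling sets the bulk of regions to no change (median log2 fold change 0.00), so a change common to all regions cannot be seen, and fewer cells with the mark and less mark per cell cannot be told apart.

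At an adjusted p under 0.05, 5795 regions (29.7%) were called higher in DDC and 6139 (31.4%) lower, 61.1% in all. All 3 libraries of 1 line lay above all 3 of the other at 63.8% of regions, 31.2% with DDC higher and 32.6% with DDC lower. Most of these differences were small, with a median log2 fold change of 0.23 among regions called higher and -0.31 among those called lower. The spread between libraries of a line was close to counting noise alone (biological coefficient of variation 0.988%, against 7.94% for RNA), which lets small folds pass. With an at least 2-fold difference asked for as well, 0.0717% of regions were higher and 1.78% lower. Relative to input, tested as the difference of the 2 fold changes, 302 regions (1.55%) rose and 733 (3.76%) fell, 5.31% in all. Leaving out a replicate here removed both its H3K4me3Q5ser library and the input library of the same line and number. Without empty-vector replicate 1 or 3 the rises numbered 150 and 163. Without DDC replicate 1, 2 or 3 they numbered 165, 172 and 178. The falls numbered 432 without DDC replicate 2.

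**Figure D1:**
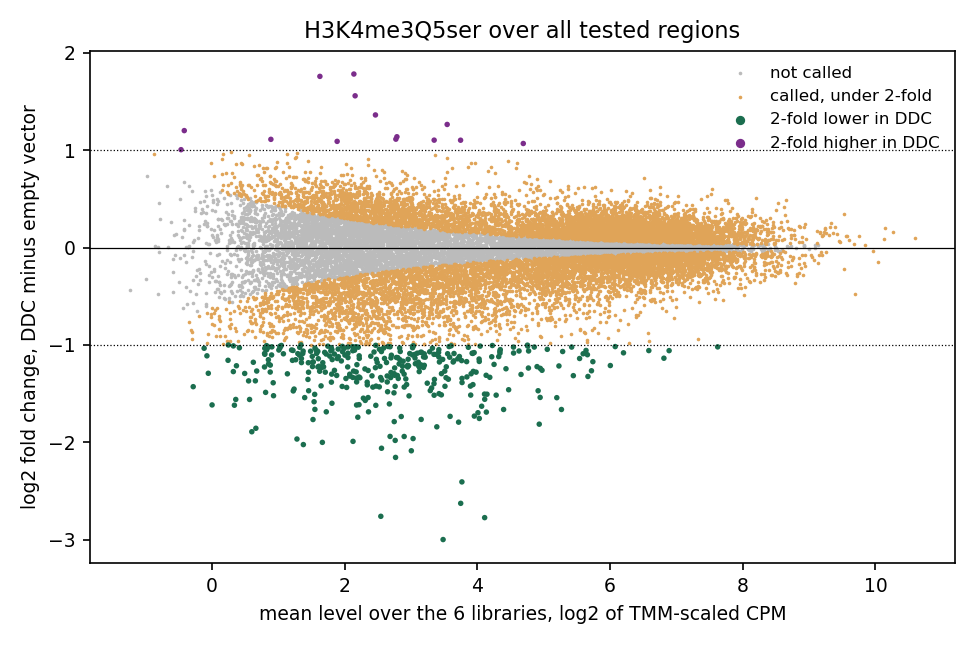
Log2 fold change of H3K4me3Q5ser (DDC minus empty vector) against the mean level of each of 19530 regions over the 6 libraries, in log2 of TMM-scaled CPM. Points at or beyond the dotted lines are called and 2-fold: 347 fall below the lower line and 14 above the upper one.

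The 12 largest falls at protein-coding starts ranged from -3.00 to -1.94 on the log2 scale, with adjusted p of at most 9.07e-18 in edgeR's quasi-likelihood test. The largest lay on chromosome 11 at 129021361 to 129024161, over a start of ARHGAP32, which encodes a GTPase-activating protein. TMM-scaled CPM (read pairs relative to library size) were 19.96, 20.05 and 19.66 in the empty-vector libraries against 2.11, 2.47 and 2.96 in DDC, a log2 fold change of -3.00 (SE 0.10, adjusted p = 2.51e-54). Every DDC library lay far below every empty-vector library. The log2 fold change there was -0.52 in input and -1.45 in H3K4me3, and the mark's change relative to input was -2.47 (adjusted p = 5.32e-24).

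MACC1, whose product promotes growth-factor signalling and metastasis in colon cancer, had 30.7, 30.2 and 29.7 CPM against 5.06, 3.91 and 4.22 over chromosome 7 at 20215117 to 20217778. Its log2 fold change was -2.77 (SE 0.08, adjusted p = 4.88e-62), and -2.37 relative to input. The lines were again fully apart, and H3K4me3 was lower by less, at -1.05. ACOXL, named for its likeness to peroxisomal acyl-CoA oxidases, had 23.4, 24.8 and 21.3 against 3.61, 3.61 and 4.07 on chromosome 2 at 110731536 to 110735485. This is a log2 fold change of -2.63 (SE 0.09, adjusted p = 9.48e-54) while input stood at 0.16, so that the mark fell by 2.78 relative to input. ACOXL RNA had 34.1, 24.4 and 27 normalised reads against 1.02, 3.22 and 0.

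The other falls were at TC2N (-2.76), DMD (-2.16), which encodes dystrophin, ANKRD22 (-2.09), ST14 (-2.06), ZMAT4 (-2.02), MYO5B (-2.00), a motor of recycling endosomes in polarised epithelium, DAPP1 (-1.99), a phosphoinositide-binding adaptor, LRRC38 (-1.98), an auxiliary subunit of potassium channels, and SCEL (-1.94), a precursor of the cornified envelope of keratinocytes. Input passed the filter on low counts at 10 of the 12, with a log2 fold change from -0.52 to 0.29, and the mark fell relative to input at all 10. At MYO5B and ZMAT4 input had 11 read pairs or fewer in each library. The change relative to input there was -2.04 (adjusted p = 0.00201; -1.70 and 0.089 without DDC replicate 3) and -1.54 (adjusted p = 0.0536; -1.76 and 0.047 without empty-vector replicate 2). The 5 largest falls with no gene start ranged from -2.41 to -1.84, and the 3 of them where input passed the filter fell relative to input. The largest of them lay on chromosome 4 at 117325462 to 117329139, with 23, 22.5 and 23.3 CPM against 4.82, 3.91 and 4.22.

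**Figure D2:**
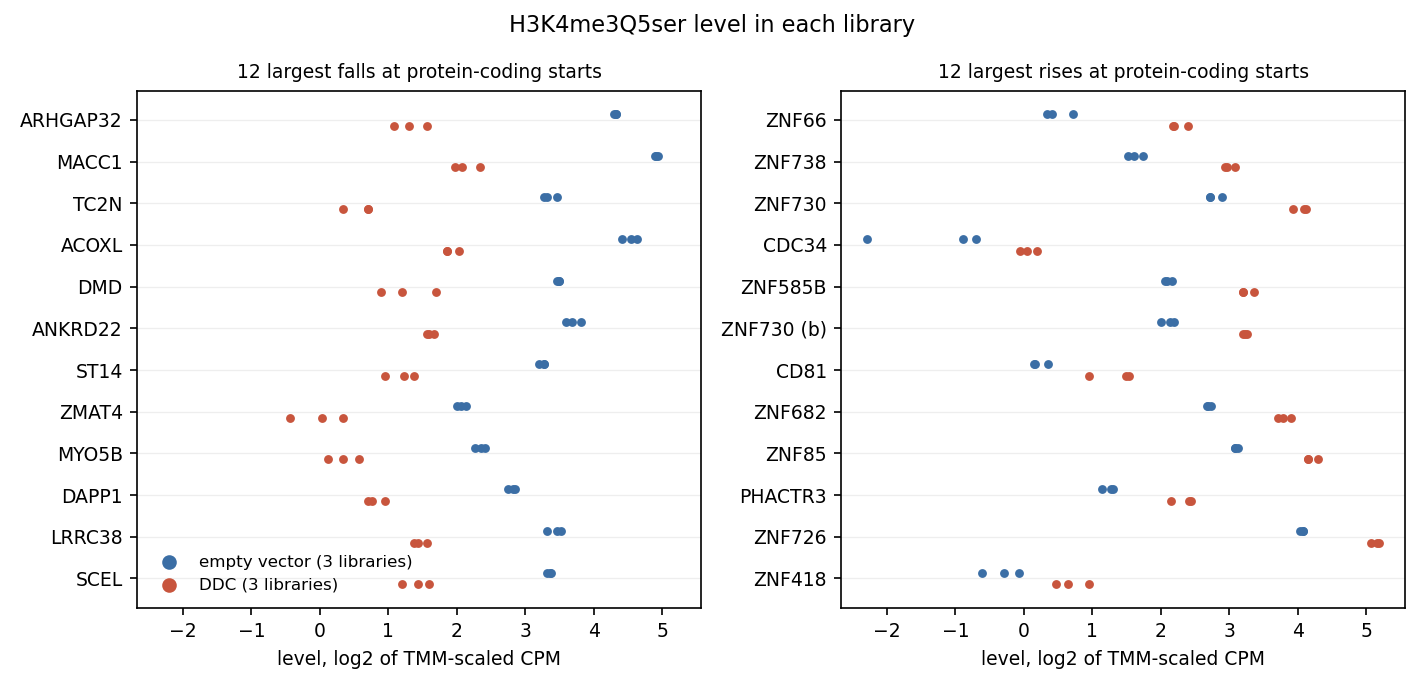
Level of H3K4me3Q5ser in each of the 6 libraries (log2 of TMM-scaled CPM) at the 12 largest falls and the 12 largest rises at protein-coding starts; a second region of ZNF730 is marked (b). No DDC library overlaps an empty-vector library in any row, as the choice of regions required.

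Among all 347 regions 2-fold lower, 183 fell relative to input and 266 fell relative to H3K4me3, tested the same way. Over all regions, 929 (4.77%) rose and 2121 (10.9%) fell relative to H3K4me3. H3K4me3 itself was called lower at 238 of the 347 and higher at 0, against 9.36% lower and 8.47% higher over all regions. Input itself was called lower at 87 of the 347, against 3.61% of all regions with input. The median was -1.22 for H3K4me3Q5ser and -0.48 for H3K4me3, and -0.42 for input over the 304 of the 347 where it could be measured. A protein-coding start lay at 99 of them, a start of a long noncoding RNA alone at 40 and no start at 208, and 277 held a peak of the deposited H3K4me3 list. Over all 19530 tested regions these counts were 12677, 1130, 5723 and 12439, so the falls lay less at protein-coding starts than regions at large. At the 99 with a protein-coding start, 71 fell relative to input and 87 relative to H3K4me3.

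Epithelial adhesion and identity genes, which encode junction proteins, keratins and the transcription and splicing factors that keep cells epithelial, had 41 regions at 32 of the 34 listed genes. Of these regions 25 were called lower and 8 higher, against 31.4% and 29.7% of all regions, and 10 (24.4%) were 2-fold lower against 1.78%. The list's median log2 fold change was -0.35 for H3K4me3Q5ser, -0.15 for H3K4me3 and -0.01 for input, and 15 of the 41 fell relative to input against 1 that rose. Over all regions 3.76% fell relative to input.

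The membrane-anchored serine protease matriptase is encoded by ST14. It had 9.16, 9.66 and 9.65 CPM against 2.35, 1.92 and 2.59 over chromosome 11 at 130159798 to 130161873, with a log2 fold change of -2.06 (SE 0.13, adjusted p = 1.66e-30). H3K4me3 at the same region was -0.36 and not called (adjusted p = 0.107), and the mark fell by 1.70 relative to H3K4me3. ST14 RNA stood at 121, 127 and 141 normalised reads in the empty-vector libraries and at 8.13, 12.9 and 11.7 in DDC.

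GRHL2, a transcription factor that maintains epithelial junction genes, had 23.8, 25 and 26.8 against 6.86, 7.94 and 7.62 (log2 fold change -1.76, SE 0.07, adjusted p = 3.27e-45), with input at 0.01. Another GRHL2 region fell by 1.73 on the log2 scale. ESRP1, which directs epithelial splicing, had 20.7, 19.3 and 21.3 against 5.96, 5.23 and 6.58 at a region with a log2 fold change of -1.79, and another of its regions was at -1.63. The 2 ESRP1 regions had H3K4me3 log2 fold changes of -0.04 and 0.01. A small H3K4me3 fold change at such weak regions need not mean that H3K4me3 was kept. At the first GRHL2 region H3K4me3 had 52.5, 53.8 and 44.8 CPM in the empty-vector libraries. Input there had 44.5, 42.9 and 56.6 CPM. Each kind of library is scaled to its own reads in regions. How far H3K4me3 stood above input can thus not be read from these CPM. EHF, an ETS-family factor of epithelial cells, had 32.4, 32.6 and 31.2 against 10.2, 10.4 and 9.69 (-1.66, SE 0.06, adjusted p = 1.89e-49).

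E-cadherin, the adherens-junction cadherin encoded by CDH1, had 9.81, 7.77 and 8.20 against 3.55, 3.73 and 4.14 on chromosome 16 at 68737025 to 68738884. Its log2 fold change was -1.18 (SE 0.12, adjusted p = 8.84e-17), and -1.48 relative to input (adjusted p = 0.000371). H3K4me3 was at -0.13 there (adjusted p = 0.698), and CDH1 RNA was 64.3, 38.2 and 52.4 against 3.05, 2.15 and 5.85 normalised reads. LAD1, the basement-membrane protein ladinin, fell by 1.70 on the log2 scale, MPZL2, an epithelial adhesion protein, stood at -1.4, and EPCAM, the epithelial cell adhesion molecule, at -0.96, -0.75 and -0.35 at 3 regions. OVOL2, a repressor of the mesenchymal programme, fell by 1.07 with an RNA log2 fold change of -0.25 that was not called.

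Several listed genes did not lose the mark. RAB25, a small GTPase of epithelial recycling endosomes, had 168, 169 and 171 CPM against 185, 194 and 190, a rise of 0.17, and rises of 0.39 at 2 other regions, although its RNA fell by 3.44 on the log2 scale. CLDN7, a tight-junction claudin, rose by 0.04 with RNA at -3.59. KRT18, KRT19, ELF3 and MARVELD2 rose by 0.10 to 0.14, and the regions of CLDN3, CLDN4, ESRP2, DSP, OCLN and GRHL1 were not called.

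**Figure D3:**
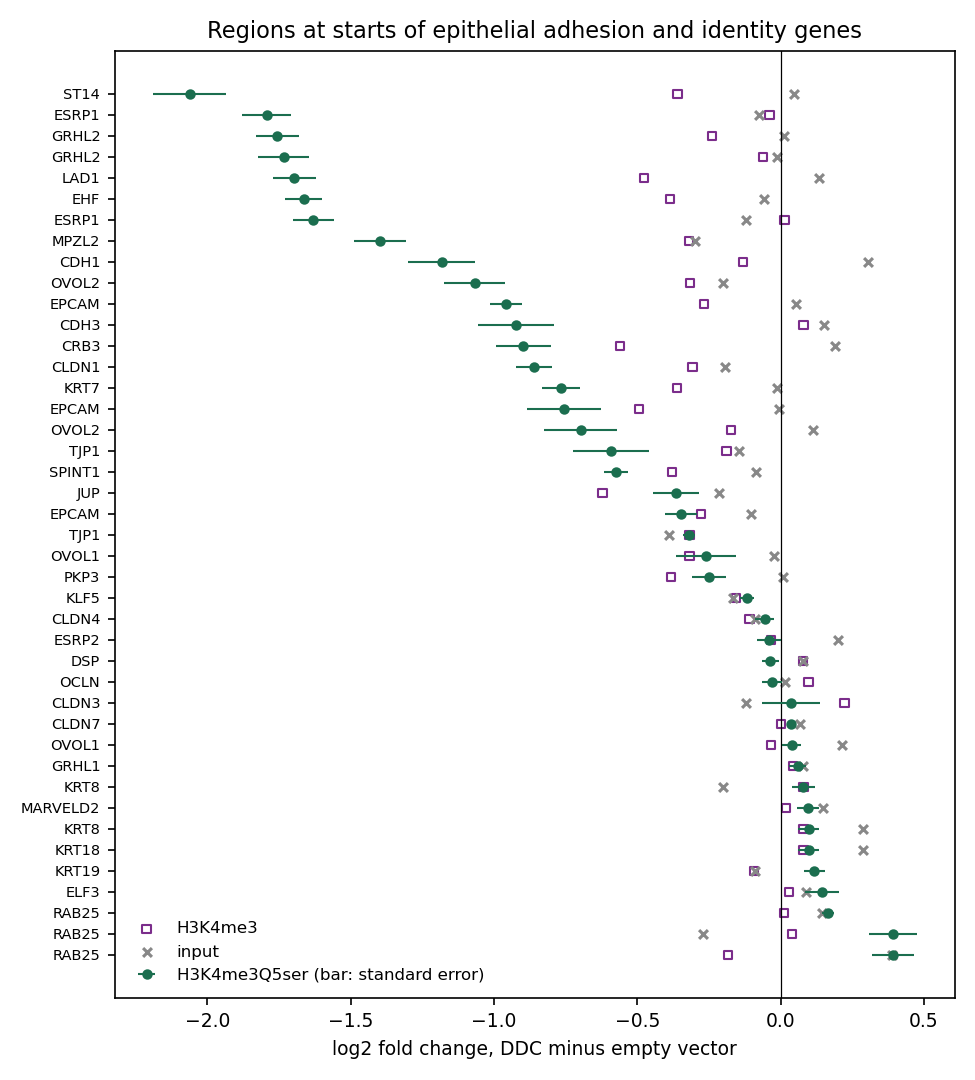
Log2 fold change (DDC minus empty vector) of H3K4me3Q5ser with its standard error, of H3K4me3 and of input at the 41 regions of the epithelial list (42 rows, since KRT8 and KRT18 share 1 region). The H3K4me3Q5ser points run from ST14 at -2.06 down to RAB25 at 0.39, with a median of -0.35 against -0.01 for input. Of the 41 regions 25 were called lower and 8 higher, and 15 fell relative to input.

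Of the genes of basal epithelium and hemidesmosomes, 13 regions at 8 of 13 listed genes held 10 called lower and 2 higher, against 31.4% and 29.7% of all regions. Their median was -0.10 with input at -0.07, and 5 fell relative to input, against 3.76% of all regions. LAMA3, a chain of laminin-332, had 10.7, 9.90 and 10.7 against 2.89, 3.19 and 2.96 at an inner start (-1.79), while its outer start was called at -0.07. LAMB3, another chain, had 137, 133 and 133 against 87.3, 88.7 and 85.1 (-0.62), and ITGB4, the hemidesmosome integrin, 36.1, 36.5 and 37.7 against 27.6, 27.6 and 27.7 (-0.41). LAMA3 RNA was at -0.05 and not called, and ITGB4 RNA fell by 1.88 on the log2 scale.

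Of 16 regions of mesenchymal genes, 10 were lower and 3 higher, against 31.4% and 29.7% of all regions. Their median was -0.10 with input at -0.09, and 1 fell relative to input. EFEMP1, a matrix glycoprotein, stood at -0.93 and FN1, fibronectin, at -0.27, while TWIST2, a transcription factor of mesenchyme, rose by 0.43 and AXL, a receptor tyrosine kinase, by 0.10.

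Among genes that handle serotonin and related amines, DDC itself had no region. DDC RNA, the check of the labels, was listed at 0, 0 and 0.844 normalised reads in the empty-vector libraries and at 23.4, 26.9 and 30.2 in DDC (log2 fold change 4.50, SE 0.49, limma adjusted p = 4.40e-07). TGM2, the enzyme that attaches serotonin to H3, lost the mark at its own start on chromosome 20 at 38161312 to 38165881. There it had 44.1, 42.0 and 42.2 CPM against 24.6, 25.6 and 28.8, a log2 fold change of -0.71 (SE 0.05, adjusted p = 1.41e-27), with input at 0.01 and H3K4me3 at -0.23. TGM2 was the 1 gene of 8 listed transglutaminases with a region, and its RNA fell by 0.49 on the log2 scale (adjusted p = 0.00264).

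Of 11 regions at serotonin and monoamine genes, 5 were lower and 3 higher (median -0.10, input 0.05), against 31.4% and 29.7% of all regions, which is close for so few. Relative to input 1 fell and 1 rose. HTR1D, a serotonin receptor, fell, with a log2 fold change of -0.54 and of -1.17 relative to input. HTR2A, another receptor, was called at -0.33 with input at -0.34, and so stood at 0.01 relative to input (adjusted p = 0.983). HTR7 was called at -0.35 and -0.24 at 2 regions, which stood at 0.09 and -0.31 relative to input and were not called there. GCH1 and QDPR, enzymes of the tetrahydrobiopterin cofactor of tryptophan hydroxylase, rose by 0.15 and 0.13, and MAOA (-0.09), which breaks monoamines down, was not called. SLC6A4, the serotonin transporter, had at most 0.661 CPM in any library and was not called (-0.32, adjusted p = 0.489).

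The kynurenine branch of tryptophan use competes for the same amino acid. Of 6 regions at its listed genes 5 were lower and 1 higher (median -0.19, input -0.11), against 31.4% and 29.7% of all regions. Relative to input 2 of the 6 fell, against 3.76% of all regions. IDO1, the enzyme at the entry of this branch, had 11.7, 10.7 and 10.3 against 5.60, 4.99 and 5.62 (-1.01). But input there was at -0.73, and the difference relative to input was -0.28 (adjusted p = 0.626). KMO, kynurenine monooxygenase, had 77.0, 77.2 and 77.0 against 47.7, 50.0 and 49.6 (-0.65) and also fell relative to input (-0.46, adjusted p = 0.000429). Of 9 regions of the aryl hydrocarbon receptor list, the receptor of kynurenine and of xenobiotics, 7 were lower and 1 higher, against 31.4% and 29.7% of all regions. Their median was -0.09 while that of input was lower, at -0.22, and relative to input 2 fell and 1 rose. CYP1B1, a cytochrome P450 that it induces, had 46.8, 50.6 and 45.5 against 14.5, 12.7 and 13.3 on chromosome 2 at 38069265 to 38077888. This was a log2 fold change of -1.81 (SE 0.06, adjusted p = 1.36e-59), -1.59 relative to input and -1.35 relative to H3K4me3, and CYP1B1 RNA was 254, 209 and 199 against 12.2, 12.9 and 19.5 normalised reads. AHR fell at a far upstream start (-1.49) and at its main start (-0.32), where input was at -0.54, while CYP1A1, another P450 of that response, rose by 0.31.

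Of 19 regions of NF-kB and cytokine genes, 11 were lower and 3 higher, against 31.4% and 29.7% of all regions. Their median was -0.15 while that of input was lower, at -0.21. Relative to input 4 fell, against 3.76% of all regions. CCL20, a chemokine of epithelium, had 40.9, 44.4 and 40.4 against 18.6, 18.2 and 16.9 (-1.22, and -0.88 relative to input), and its RNA fell by 1.18 on the log2 scale. IL6 had 23.7, 23.5 and 23.2 against 13.6, 12.9 and 13.2 (-0.82, the same relative to input), with RNA at -0.47 and not called. CXCL8, a neutrophil chemokine, fell by 0.62 without a call relative to input, and NFKBIA, the inhibitor of NF-kB, fell by 0.12 with RNA 0.59 higher. LIF, ICAM1 and RELA rose by 0.41, 0.32 and 0.13.

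HIF1A, the oxygen-regulated transcription factor, held the fall with the smallest adjusted p of all regions. Over chromosome 14 at 61744702 to 61753341 it had 264, 269 and 259 CPM against 132, 127 and 132, a log2 fold change of -1.02 (SE 0.02, adjusted p = 7.18e-79) and -0.81 relative to input. Another HIF1A start had 583, 590 and 580 against 572, 544 and 549, a fold change of -0.07, so the lines were apart at 1 of the 2 starts by far more than at the other. Its RNA fell by 0.65 on the log2 scale. Over the 21 regions of the hypoxia and glycolysis list 12 were lower and 4 higher (median -0.08), 2 fell relative to input, and EGLN3, a prolyl hydroxylase of HIF, fell by 0.56. Of 21 interferon regions 12 were lower and 3 higher (median -0.18, input 0.08), with ISG20, an interferon-induced exonuclease, at -0.77. Of 16 immediate early regions 9 were lower and 4 higher (median -0.15, input -0.11), with EGR1 at -0.67 and FOS at -0.53. These shares stand against 31.4% lower and 29.7% higher over all regions, and 2 regions of each list fell relative to input.

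Of 34 regions of HOX and other homeobox genes, 17 were lower and 4 higher (median -0.17, input 0.05), against 31.4% and 29.7% of all regions. Relative to input 5 fell, against 3.76% of all regions. A region across HOXB8 and HOXB9, which set body-axis position in the embryo, had 121, 122 and 126 against 65.8, 66.0 and 69.8 on chromosome 17 at 48615412 to 48629072. Its log2 fold change was -0.88 (SE 0.03, adjusted p = 6.28e-56), -1.0 relative to input, with H3K4me3 at -0.11 and not called, and HOXB9 RNA fell by 2.82 on the log2 scale.

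FOXA1, a pioneer factor of prostate epithelium, had 435, 436 and 441 against 369, 363 and 364 (-0.26, and -0.33 relative to input). The neuroendocrine and plasticity list, the programme the series title names, had 17 regions with 8 higher and 4 lower, against 29.7% and 31.4% of all regions, and a median of 0.12 with input at 0.11. FOXA2, a factor of neuroendocrine prostate tumours, had 106, 102 and 102 against 130, 130 and 129, a rise of 0.33. AURKA, a mitotic kinase, rose by 0.28 at a region it shares with CSTF1, and EZH2, the H3K27 methyltransferase, rose by 0.19. ENO2, neuron-specific enolase, rose by 0.61, 0.17 and 0.15, while SOX2, a stem-cell factor, fell at a sparse region (-1.11) and at another (-0.58). None of the 17 rose relative to input and 1 fell.

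Lists of genes active in most cells had small positive medians. Over all regions 29.7% were higher and 31.4% lower. Of 28 regions of cytosolic ribosomal proteins 25 were higher and 1 lower (median 0.17, input 0.07), with RPL11 at 93.3, 96.9 and 96.2 against 126, 123 and 125 (0.38). None of the 28 was called relative to input, and their median length was 13770 bp, and of the fifth of regions that is longest 54.3% were higher. Of 25 regions of H3K4 methylation writers, readers and erasers 14 were higher and 0 lower (median 0.12, input 0.06), with the methyltransferase gene KMT2D at 0.32 and the reader gene TAF3 at 0.25, and 0 of the 25 were called relative to input. Cholesterol synthesis had 16 of 22 higher and 2 lower (median 0.11, input 0.05) and endoplasmic reticulum stress 12 of 22 higher and 3 lower (median 0.09, input 0.15). G2/M genes had 10 of 17 higher and 3 lower (median 0.09, input -0.08), and G1/S genes 8 of 19 higher and 3 lower (median 0.07, input -0.03). HSPA5, the chaperone BiP, had 115, 113 and 112 against 125, 123 and 125 (0.13) with input at -0.45, and so rose by 0.58 relative to input (adjusted p = 2.04e-05) while its RNA fell by 0.95. The NRF2 list had 4 of 18 higher and 6 lower, metallothioneins 1 of 5 higher and 2 lower, and S100 genes 2 of 7 higher and 3 lower, near the shares over all regions for so few.

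Genes of other cell types had 7 regions, 3 higher and 4 lower, against 29.7% and 31.4% of all regions. PECAM1, an endothelial adhesion gene, had 52.8, 51.2 and 52.8 against 32.0, 30.5 and 34.8 (-0.69). In RNA the summed endothelial markers were 206 to 229 normalised reads in empty-vector libraries and 65.3 to 85.3 in DDC, with CDH5 and VWF at 0, fibroblast markers 43.5 to 45.6 and 10.7 to 23.6, and blood markers 126 to 136 and 136 to 169, with PTPRC and CD3E at 0. All 5 epithelial markers were measured and summed to 24758 to 30198 against 15807 to 19310. Their part in the mark's differences was not tested.

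The 12 largest rises at protein-coding starts ran from 0.98 to 1.76 on the log2 scale, with adjusted p of at most 0.000992. Of these, 10 lie on chromosome 19 and 9 at zinc-finger genes, many of which encode repressors that bind transposable elements. The largest, on chromosome 19 at 20776272 to 20777362 by ZNF66, had 1.64, 1.27 and 1.32 CPM against 5.24, 4.57 and 4.51 (1.76, SE 0.17, adjusted p = 4.78e-18). ZNF738 had 3.04, 2.86 and 3.35 against 7.65, 7.82 and 8.43 (1.36), with input at -0.43, and rose relative to input by 1.80 (adjusted p = 0.000145). ZNF730 had 6.57, 7.41 and 6.58 against 17, 15.2 and 17.3 (1.26), but input there rose by 0.88 and the difference relative to input was 0.38 (adjusted p = 0.436). Input passed the filter on low counts at 8 of the 12, and 3 rose relative to input. The 5 largest rises with no gene start ran from 0.92 to 1.78, and 0 of them rose relative to input, with input measured at 2. The largest, on chromosome 2 at 216692050 to 216693266, had 1.81, 2.37 and 1.74 against 7.59, 5.41 and 7.55.

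ZNF85 was among those 3, with 8.5, 8.47 and 8.69 against 19.6, 17.7 and 17.8 and a rise of 1.04 relative to input (adjusted p = 0.00212; 0.86 and 0.08 without empty-vector replicate 3). ZNF585B had 4.27, 4.46 and 4.18 against 9.15, 9.14 and 10.3 (1.14), and 0.93 relative to input (adjusted p = 0.11). Over all 233 regions at zinc-finger starts of chromosome 19, 186 (79.8%) were higher and 9 (3.86%) lower, against 29.7% and 31.4% of all regions. Relative to input 6 of the 233 rose and 2 fell, against 1.55% and 3.76% of all regions. Their medians were 0.34 for H3K4me3Q5ser, 0.31 for input and 0.39 for H3K4me3. At 259 zinc-finger regions of other chromosomes the median was 0.05, and at 1342 regions of chromosome 19 without such a gene it was 0.17. The rise with the smallest adjusted p was at CUL2, a scaffold of ubiquitin ligases, with 340, 336 and 330 against 472, 467 and 477 (0.49, adjusted p = 2.99e-60), of which input had 0.33. DPF3, a subunit of chromatin-remodelling complexes, had 652, 651 and 651 against 820, 826 and 840 (0.35) and rose by 0.20 relative to input (adjusted p = 2.82e-06).

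Chromosome medians of the mark moved with those of input. They were 0.20 for the mark and 0.17 for input on chromosome 19, 0.15 and 0.13 on chromosome 12, 0.14 and 0.11 on chromosome 16, and -0.11 for both on chromosome 2. Over 18025 regions with input the log2 fold changes of mark and input had a Pearson r of 0.46, a description across regions that share libraries. Input itself was called higher at 485 regions (2.69%) and lower at 650 (3.61%).

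The mark also differed along GC content. In the fifth of regions lowest in GC (up to 41.3%) the median was -0.11 and 1792 regions were lower against 591 higher, with input at -0.12 and H3K4me3 at 0.00. That group held 232 of the 2-fold falls, and the median GC content of all 347 was 36.8% against 46.8% over all regions. Short regions held more of them too, with 148, 140, 53, 5 and 1 in 5 equal groups from the shortest to the longest. With a trend in GC removed, 205 regions were 2-fold lower and 27 higher. The part of copy number, chromatin shearing and base composition in these differences was not tested.

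**Figure D4:**
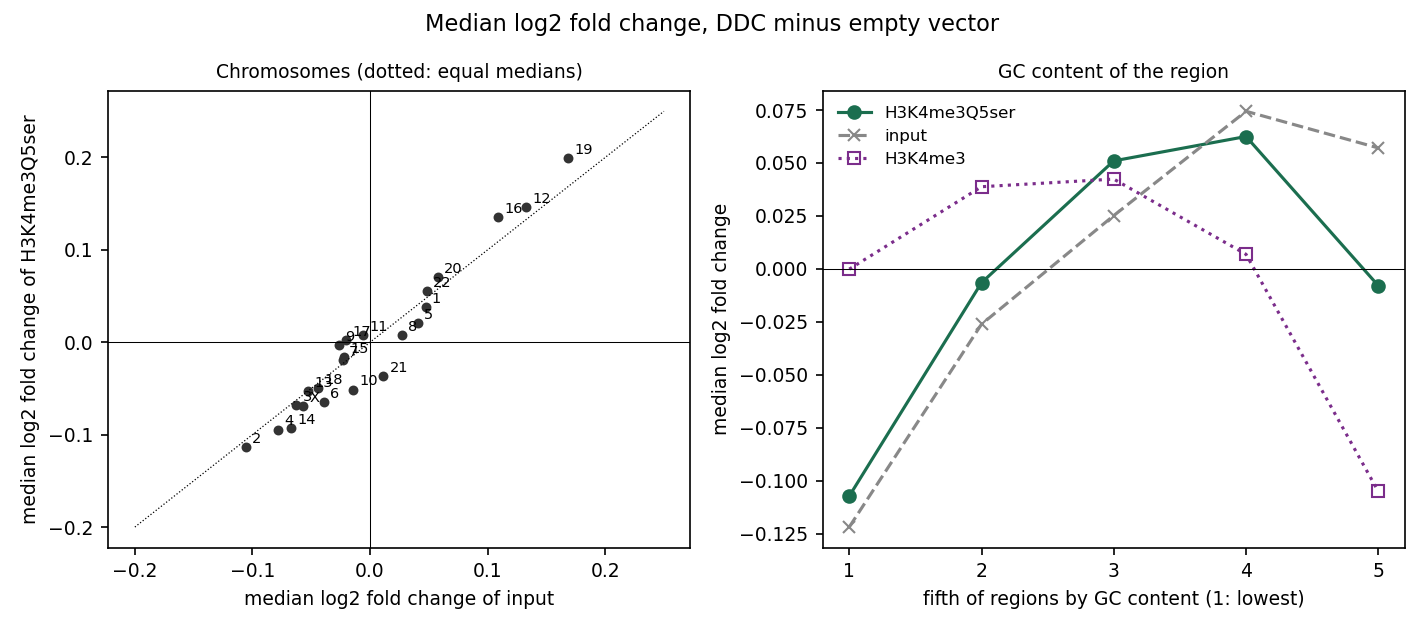
Median log2 fold change (DDC minus empty vector) of H3K4me3Q5ser against that of input for each chromosome but Y (left), and of the mark, input and H3K4me3 in 5 equal groups of regions by GC content (right). Chromosome 19 lies highest at 0.20 against 0.17 of input, and the group lowest in GC stands at -0.11 for the mark and -0.12 for input.

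RNA was set beside the mark for 8711 genes with a region of their own within 1000 bp of the start, of which 6926 passed the filter on RNA. Over all 13146 tested genes 1175 (8.94%) were higher in DDC and 1106 (8.41%) lower, 17.4% in all. Without empty-vector replicate 1 or 2 the lower genes numbered 734 and 708. Among genes whose mark was 2-fold lower, 39 of 70 had RNA that passed the filter, and 31 were below it. RNA was lower at 32 of the 39, 28 of them 2-fold, and higher at 1, with a median log2 fold change of -1.59. A gene could pass the filter of at least 10 normalised reads in 3 libraries through the empty-vector libraries alone. ACOXL, CDH1 and MPZL2 passed it in this way. The filter thus favours genes with RNA lower in DDC here, and 32 of 39 does not describe all 70. The median over the 6926 was -0.02. Over the wider calls, RNA was lower at 391 and higher at 95 of 2164 genes with the mark lower (median -0.16), and higher at 312 and lower at 109 of 2532 with the mark higher (median 0.08). RNA of most genes on either side was not called. Among the 39 genes with the mark 2-fold lower, the 1 with RNA higher was CPA4, a carboxypeptidase, with the mark at -1.03 and RNA at 0.46. RNA was not called at MYO5B, SYK, BCHE, FAAH2, NCKAP5 and OVOL2 of the same 39.

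Read from the RNA, 145 genes were 2-fold lower, and the mark was lower at 118 of them (81.4%, against 31.2% of the 6926) and higher at 8. Of 28 genes with RNA 2-fold higher, the mark was higher at 17 (60.7%, against 36.6%). AGR2, a disulfide isomerase of secretory epithelium, had RNA of 2581, 2395 and 2506 against 209, 235 and 203 normalised reads with the mark at -1.54, and C3, the complement component, and CXCL5, a chemokine, had the mark at -1.34 and -1.22. HTRA1, a secreted protease, had the mark at 0.87 and RNA of 20.1, 31.8 and 32.1 against 53.8, 77.4 and 71.2. RELN, the matrix protein reelin, had the mark at 0.89 and RNA 1.48 higher on the log2 scale, and AK5, an adenylate kinase, the mark at 0.54 and RNA 2.35 higher. AP1M2, an epithelial sorting adaptor, went the other way, with the mark 0.66 higher and RNA at -3.57. Its region lies 685 bp from the nearest AP1M2 start and was not called relative to input. S100A14 RNA fell by 4.89 with the mark at 0.04 and not called. Over the 6926 genes Pearson's r of the log2 fold changes was 0.45 and Spearman's rho 0.32, across genes, which are not independent replicates.

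**Figure D5:**
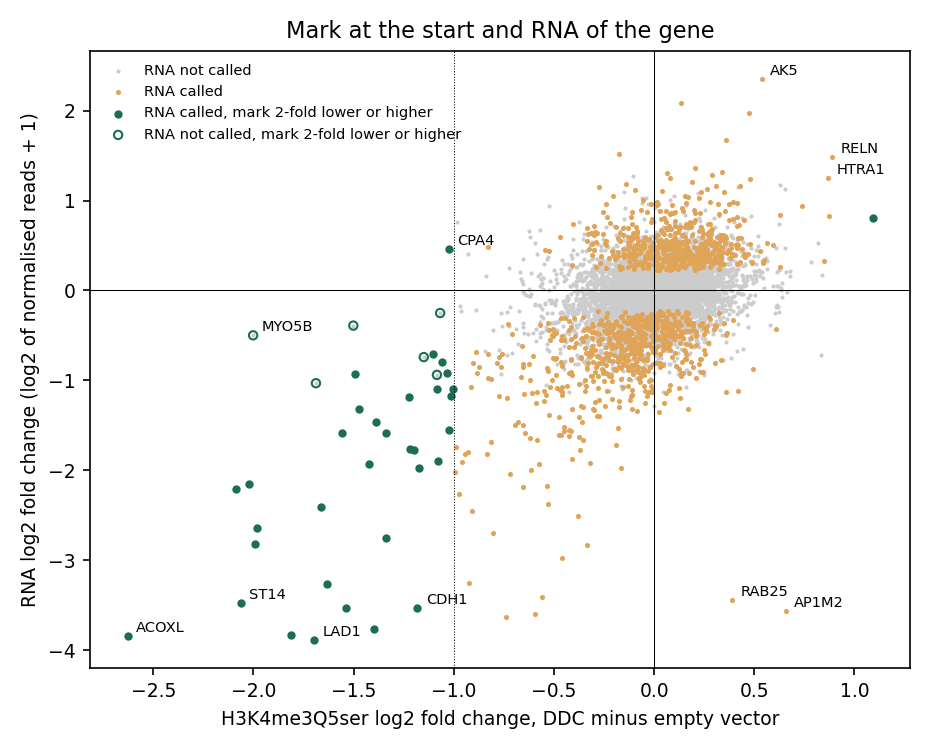
Log2 fold change of RNA (vertical axis) against that of H3K4me3Q5ser (horizontal axis), DDC minus empty vector, 1 point for each of 6926 genes. Genes with the mark 2-fold lower lie mostly in the lower left, 32 of the 39 that passed the RNA filter with RNA called lower. Another 31 such genes were below the filter and are not shown. RAB25 and AP1M2 sit at the lower right.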

How the data were processed

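ChIP libraries came from formaldehyde-fixed, fragmented chromatin, and regions were counted from alignments to GRCh38, per the labels and the submitters' processing notes, which name Bowtie2, MACS2, HOMER, featureCounts and, for RNA, HISAT2 2.1.0 and DESeq2. Values of the deposited ChIP table are estimated counts of read pairs in each region, from featureCounts 2.0.3 with multiple hits shared as fractions, per the file headers. That command also set a strand although the regions have none, with an effect that is not known. Column names in the deposited table mark duplicates as removed. As 9.61% of the deposited estimated counts used here had decimals, all were rounded. The deposited list of H3K4me3 peaks gives start and end positions, and how the regions were combined is not given in the sources used here. RNA values are DESeq2-normalised signal per the file headers, and 100% came out as whole reads. The deposited log2 fold changes and p-values of the authors' RNA table were not used.

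Regions were tested with edgeR 4.0.16 (R 4.3.3): TMM scaling, edgeR's filter on low counts, quasi-likelihood F-tests, and the difference of fold changes between antibody and input or H3K4me3. The dispersion was held at 1e-04 or above, since edgeR's deviance was inexact under it. RNA was tested with limma 3.58.1 on log2(normalised reads + 1) for genes with at least 10 normalised reads in at least 3 libraries, so folds of low genes are understated. The design had assumed counts for RNA. Two-sided p-values were adjusted by Benjamini-Hochberg over all features, at a threshold of 0.05. A 2-fold call also needs a log2 fold change of 1 or more in size. The pipeline was tested on simulated data. DESeq2 1.42.0 was an alternative.

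Genes (GENCODE version 44) were assigned regions within 1000 bp of a start. A region named for a gene can lie at starts of other genes too, as at KMT2D with RHEBL1 and FOXA1 with TTC6. Regions were named by a rule: the 12 largest rises and falls at protein-coding starts and the 5 with no gene, among called regions whose libraries do not overlap; the 4 with the smallest adjusted p each way; up to 3 called regions per list; and DDC, SLC6A4 and TGM2. Other regions named in the text are list members or genes picked after their values were seen. The comparison and the 24 gene lists were chosen with earlier results of these data known, and lists are described by counts and medians. Results for a few genes and 1 list are not reported here.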

Additional observations from a re-analysis of the deposited data

How the results depend on the processing

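Counts of regions for the mark alone kept within 1.5 times of the reported ones under library size alone, DESeq2 size factors, cyclic loess, DESeq2 (4714 higher and 5040 lower), other filters on low counts, all 9 libraries of the antibody and no floor on the dispersion. Counts relative to input and to H3K4me3 were recomputed with library size alone, no filter on low counts, the block, libraries left out and pairs within sampling noise counted as 1 library (299 and 706, and 905 and 2074). A test against a 1.2-fold difference left 846 higher and 2120 lower. Alternatives chosen after seeing the data gave 1076 and 2362 with an assumed coefficient of variation of 0.1, and 27 regions 2-fold higher and 205 lower with the GC trend removed. Leaving out 1 library gave 5283 to 5406 higher and 5656 to 5860 lower (14 to 20 and 342 to 375 2-fold). In RNA it gave 835 to 1073 and 708 to 1041. Relative to input or H3K4me3, the H3K4me3Q5ser library and the other library of the same line and number were left out together. This gave 150 to 215 and 432 to 567 relative to input (5 to 15 and 150 to 187 2-fold). Relative to H3K4me3 it gave 621 to 765 and 1596 to 1823 (22 to 36 and 99 to 110 2-fold). Correlations of deviations between same-numbered H3K4me3Q5ser libraries of the lines were -0.0362, -0.0305 and 0.0083. Libraries of a line differed by little more than counting noise, so these values cannot show whether the numbers pair the libraries. A replicate block gave 5700 higher and 6075 lower, 14 and 347 2-fold. It gave 284 and 695 relative to input, 924 and 2082 relative to H3K4me3, and 1212 and 1157 genes in RNA. Among the named regions no alternative reversed a direction, and 84 of 2095 values of the mark lost their call. The direction of the S100 list's median depended on scaling (-0.01, and 0.01 under cyclic loess). Input depth limits what can be called relative to input.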

Other observations

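Agreement between libraries of a line differed between the lines at a few regions, picked out here after their values were seen. The 3 libraries of a line differed beyond counting noise (chi-square with Benjamini-Hochberg adjustment) at 0 of 19533 regions in the empty-vector line and at 20 of 19529 in DDC, and at 0 regions for H3K4me3 and input in either line. Of the 20, 18 overlap a coding exon against 50.8% of all regions, 17 hold no H3K4me3 peak against 36.3%, and 16 are lowest in DDC library 1. Over all regions without such a peak 28.8% overlap a coding exon. Exons of PRL, which encodes prolactin, hold 3 of them. At chromosome 6, 22287271 to 22287634, the empty-vector libraries had 15.8, 16.4 and 15.2 CPM and the DDC libraries 28.5, 27.7 and 1.04, so that DDC library 3 alone was near 0. The other PRL regions had 8.01, 7.52 and 0.370 and 10.0, 9.5 and 0.592 in DDC. At TMPRSS2 the mark had 24.1, 19.8 and 23 against 10.0, 15.9 and 22.3, with input at 35.1, 34.2 and 29.6 against 70.3, 76.2 and 62.0. Others lie in coding exons of NOTCH2, RET, AKT1, ALK, SETD2, APC and FGFR1.

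Input was called 2-fold higher in DDC at 24 regions, of which 18 overlap a coding exon, 23 hold no H3K4me3 peak and 5 lie on chromosome 19. Of these 24 regions, 7 are among the 20 above. Of the 20, 17 were called in the comparison of the lines and 1 was called 2-fold (PTCH1, -1.03).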
